A study of Mus musculus with 5 samples.

Results

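The nuclear hormone receptors are a family of transcription factors, many of which are switched on by a small lipid-soluble ligand, and the genes of 41 of them were listed. A gene was included when the deposited table held a probe set annotated to it alone, which was so for 39 of the 41 genes among 18193 genes in all. Nr1h2 and Nr2e3 were not analysed here. The 39 genes had 102 probe sets between them, and the brightest one on average stands for its gene. The samples were GFP+ cells sorted by flow cytometry from the lungs of FOXJ1-GFP mouse embryos at E17.5, with 1 Affymetrix array for each of 5 biological replicates. The embryos came from matings of FOXJ1-GFP mice with the out-bred ICR strain, and in this reporter line the FOXJ1 promoter, which is active in cells with motile cilia, drives GFP. All arrays belong to this 1 group, so no treatment, genotype or time was compared, and the question asked of each receptor gene was whether its level exceeded that of genes which these cells should lack. The sources used here do not say whether a replicate came from 1 litter or several, so the p-values rest on the spread among these 5 samples, which may be technical in part.

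A nuclear receptor carries a zinc-finger domain that binds DNA and, in most members, a pocket that binds its ligand. Steroid receptors such as the glucocorticoid receptor wait in complexes with chaperones and bind DNA as pairs of like molecules, whereas the thyroid hormone, retinoic acid, vitamin D and lipid-sensing receptors pair with a retinoid X receptor (RXR). Orphan receptors have no settled natural ligand. In the developing lung, retinoic acid acts on the branching and differentiation of the epithelium, and glucocorticoids promote its maturation before birth.

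Levels are log2 normalized signals, and distances from the background level are in log2 units, negative below it. The background level was set at 7.97 from 154 genes that should be silent here, as the value that 95% of their means did not exceed. Of these genes 77 encode chemosensory receptors (of smell, pheromones or taste) and 77 were listed as restricted to tissues other than lung. Of the 154, 8 had a mean above that level. The test described next was passed by 6 of them: Fabp2 (8.69), Krt10 (9.01), Lhb (11.15), Mbp (10.53), Pomc (10.01) and Ttr (10.61). Krt1 and Prm1 did not pass it. All 8 were listed as tissue-restricted, and 0 of the chemosensory receptor genes passed, so not every listed gene read as silent. "Above background" means that the mean of a probe set exceeded 7.97 in limma's one-sided moderated test with an adjusted p under 0.05 over all 45037 probe sets. Since the brightness of a probe set also depends on its sequence, the receptor genes are not ranked by level. The background level comes from other genes, so every call carries this limit too. Of 14 measured marker genes of ciliated cells, 13 were above background, with Spag6 at 3.67 ± 0.13 (SD, n = 5 arrays) as the exception. So were 9 of 9 markers of alveolar type 2 cells, 9 of 9 of alveolar type 1 cells, 5 of 9 of club cells, 11 of 12 of endothelium, 10 of 14 of mesenchyme, 7 of 12 of white blood cells, 4 of 6 of mesothelium, 4 of 6 of neuroendocrine cells and 1 of 7 of red blood cells. With the 99th percentile of the same background genes as the level, 27.0% of all genes were above background, beside 58.0% with 7.97. The counts were then 11 for ciliated cells, 6 for alveolar type 1 cells, 5 each for club and alveolar type 2 cells, 4 for endothelium and 6 for mesenchyme. They were 2 for white blood cells, 1 each for mesothelium and neuroendocrine cells and 0 for red blood cells. The part of these other cell types in the levels of the receptors was not tested. In sorted cells measured in bulk, fewer cells of a type and less RNA per cell cannot be told apart.

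Of the 39 measured receptor genes, 18 (46.2%) were above background, beside 58.0% of all 18193 genes. The median of the receptor genes lay 0.03 below the background level (-0.03), whereas the median of all genes lay 1.10 above it. By class, the 18 were 6 of 15 NR1 receptors (the thyroid, retinoic acid, vitamin D and lipid-sensing receptors), 6 of 11 NR2 receptors (the RXRs and several orphan receptors), 4 of 8 NR3 receptors (the steroid and estrogen-related receptors) and 2 of 5 receptors of the classes NR5, NR6 and NR0. All 5 arrays lay above the level for these 18 genes, all 5 lay below it for 17 genes, and the arrays of 4 genes fell on both sides. The count followed the level chosen. It was 7 (27.0% of all genes) with the 99th percentile, 10 (45.5%) with only the tissue-restricted genes as background, 30 (77.4%) with the chemosensory receptor genes alone and 32 (81.3%) with a level of 5. The last of these borrows a number that the study used otherwise, as a filter on average expression joined to a fold change between stages, and here it is a test level on these arrays alone. Other choices moved it less. It was 16 with the probe sets of each gene averaged (53.8% of all genes). It was 19 of 33 without probe sets whose names mark targets shared by transcripts, of 1 gene or of several (61.9%). With a filter on dim probe sets it was 18 of 34 (67.8%), and 18 when all 5 arrays had to exceed the level (57.5%). Without replicates 1 to 5 in turn, 57.9%, 57.6%, 58.2%, 57.8% and 57.9% of all genes were above background, and 18 receptor genes, or 19 without replicate 4. The genes Vdr, Rxra, Rxrb, Nr2c2, Nr2f2, Nr2f6 and Nr3c1 were above background in each of the 15 alternative analyses, and Thrb, Rorb, Hnf4g, Rxrg, Nr2e1, Esr1 and Nr0b1 were above it in none of those in which they had a probe set.

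**Figure D1:**
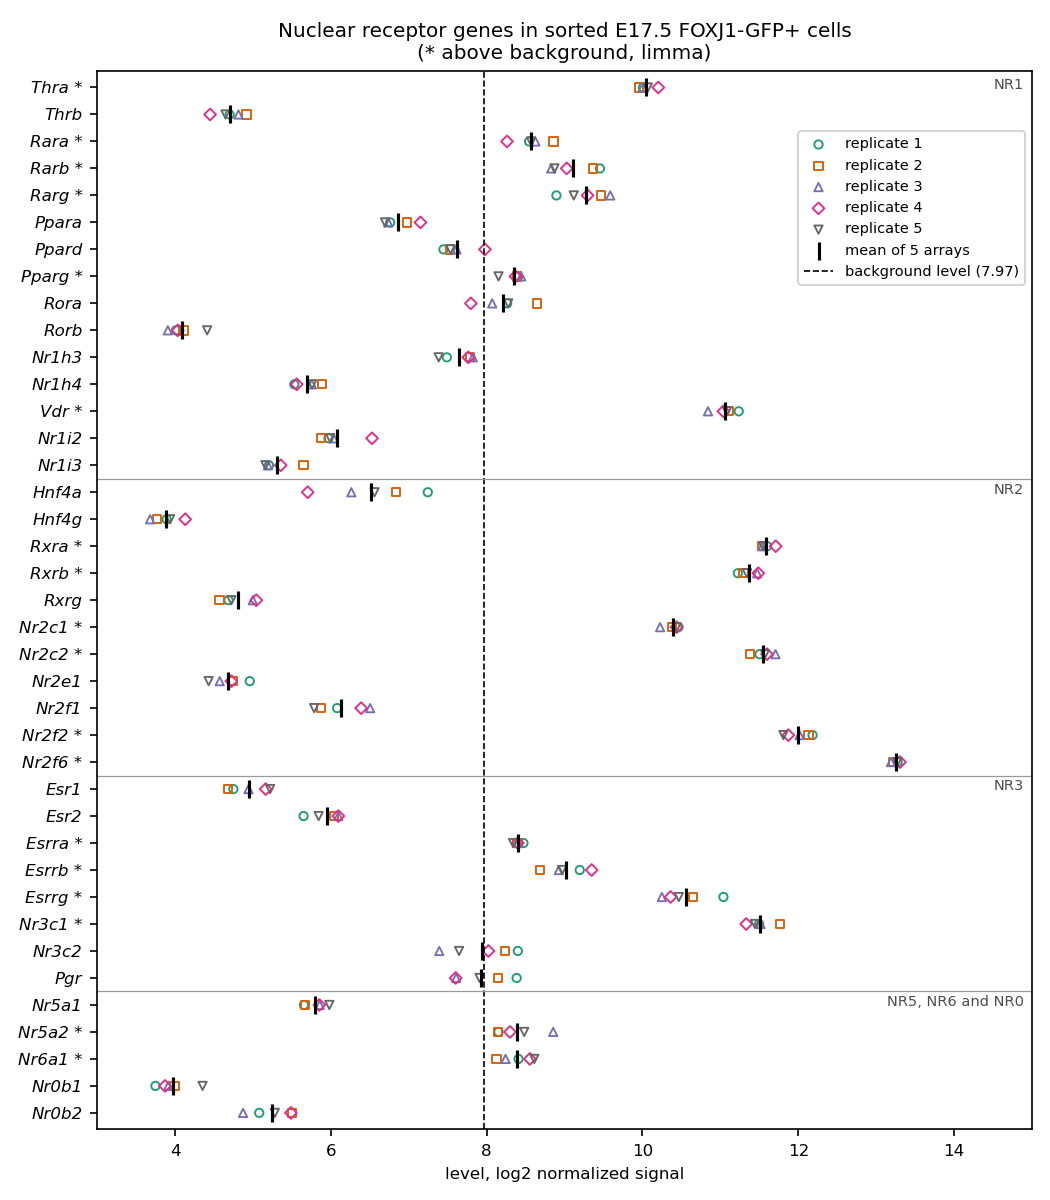
Levels of the 39 measured nuclear receptor genes on the 5 arrays. The horizontal axis is the log2 normalized signal, each symbol is 1 array, the black tick is the mean and the dashed line the background level of 7.97; asterisks mark the 18 genes above background, whose symbols all lie to the right of the line.

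**Figure D2:**
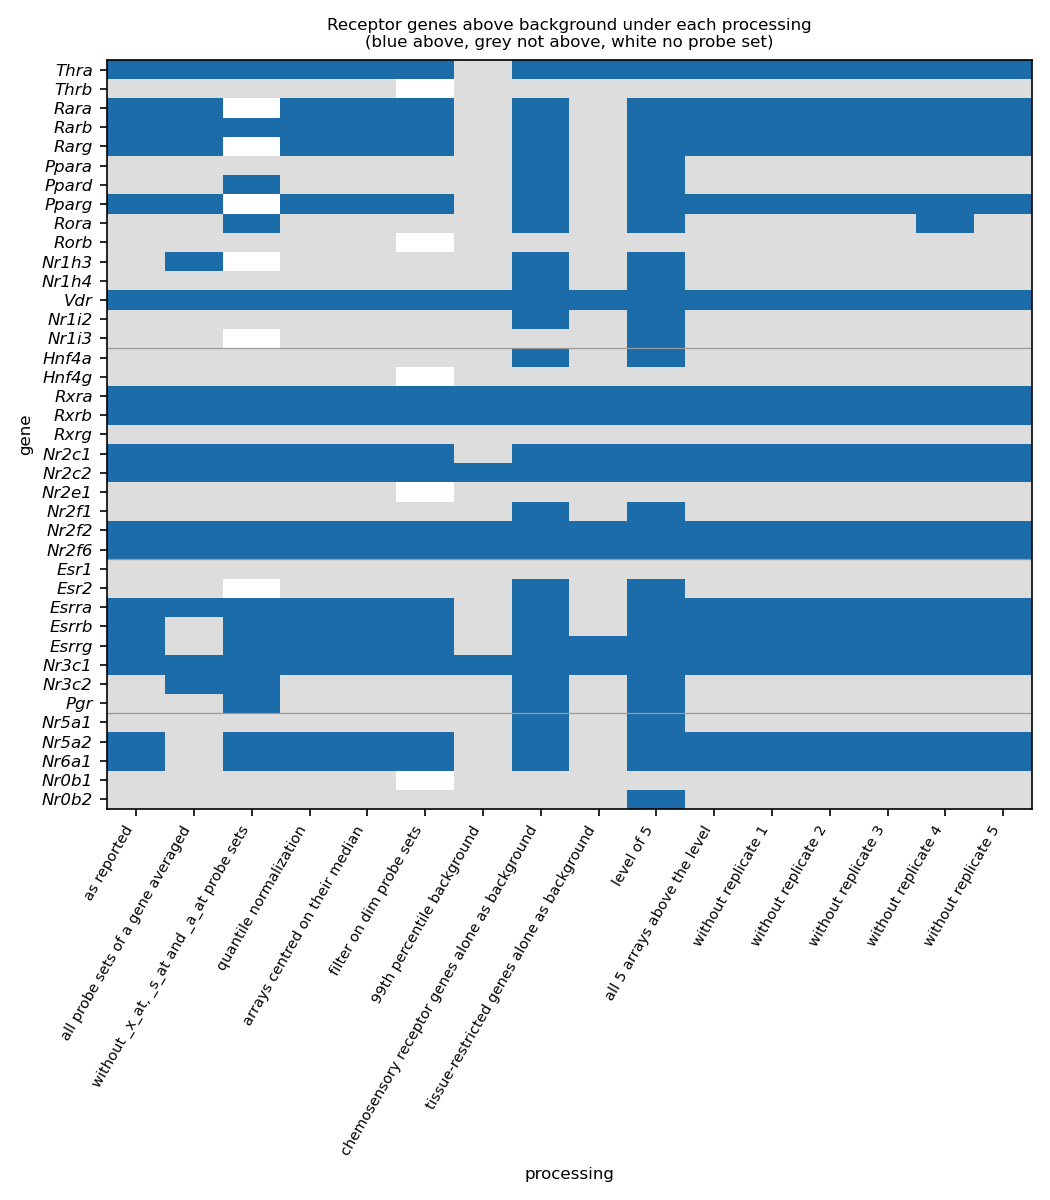
Calls of the 39 receptor genes as reported and in the 15 alternative analyses. Each row is a gene and each column an analysis; blue marks a gene above background, grey a gene that was not and white a gene without a probe set. The columns that differ most are those with another background level, with 7, 30, 10 and 32 genes above it.

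Among the RXRs, Rxra and Rxrb were above background and Rxrg was not. Rxra, the partner of many other receptors, read 11.60, 11.54, 11.54, 11.71 and 11.55 in replicates 1 to 5 (mean 11.59 ± 0.07, SD, n = 5 arrays; adjusted p = 4.46e-10, limma). Rxrb read 11.23, 11.30, 11.47, 11.49 and 11.34 (adjusted p = 9.79e-10, limma). Rxrg, whose known sites are mainly muscle and brain, lay between 4.57 and 5.04. The arrays of Rxra differed by 0.17 and those of Rxrb by 0.26, so each gene varied little between the 5 arrays. The level of Rxra came from 1 of 3 probe sets, the others being at 6.84 and 5.12, whereas Rxrb has 1 probe set.

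All 3 retinoic acid receptor genes were above background. Rara read 8.54, 8.86, 8.63, 8.26 and 8.57 in replicates 1 to 5, and its mean of 8.57 lay 0.60 above the level (adjusted p = 0.000339, limma). Rarb, itself a target of retinoic acid, read 9.45, 9.36, 8.83, 9.03 and 8.87 (adjusted p = 2.1e-05, limma). Rarg read 8.90, 9.47, 9.59, 9.30 and 9.12 (adjusted p = 7.29e-06, limma). Rarb was highest in replicate 1 and lowest in replicate 3, where Rarg was lowest and highest in turn. A second probe set of Rarg, at 6.80, was not above background. With only the tissue-restricted genes as background, none of the 3 calls held (-0.64, -0.10 and 0.06 from that level for Rara, Rarb and Rarg).

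The start region of Rarb holds a known response element for retinoic acid, a direct repeat of the sequence that RAR and RXR bind together, and is shown for that reason. RefSeq's window on GRCm38.p6 lies at chr14:16575427-16575726 on the minus strand, from 250 bases before the transcription start to 50 after it. Capitals mark the repeat, at positions -53 to -37 from the start.
Rarb: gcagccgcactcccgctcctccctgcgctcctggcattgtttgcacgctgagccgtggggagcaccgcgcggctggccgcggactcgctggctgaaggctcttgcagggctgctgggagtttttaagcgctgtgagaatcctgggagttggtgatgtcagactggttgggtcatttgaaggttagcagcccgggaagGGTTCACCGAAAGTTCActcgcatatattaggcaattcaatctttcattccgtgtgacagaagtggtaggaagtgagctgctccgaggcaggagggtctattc
The letters GTTCA, followed after 6 bases by GTTCA again and searched on both strands, occurred in 25 of all 32851 promoter windows (0.0761%), and among the 56 windows of the receptor genes in this one alone. The single core sequence AGGTCA, which many nuclear receptors recognise, occurred in 11 of those 56 windows (19.6%) and in 16.3% of all windows, searched in the same way. A match is a description of the letters, and the levels of the receptors do not bear on whether the site was used. That pattern was searched because the element is known.

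Genes that make, bind or break down retinoic acid were mostly not above background. Of 12 measured genes, 4 were (33.3%, beside 58.0% of all genes). The median of the list lay at -0.68 from the level, beside 1.10 for all genes. Rbp4, a carrier of retinol, was at 8.87 ± 0.25 (SD, n = 5 arrays). Rdh10, which oxidises retinol, was at 9.06 ± 0.08. Dhrs3, which turns retinal back to retinol, was at 12.72 ± 0.15, and Aldh1a1, which makes retinoic acid and is also a marker of club cells, at 12.96 ± 0.06. The other enzymes of synthesis, Aldh1a2 at 7.05 ± 0.45 and Aldh1a3 at 6.26 ± 0.31, the receptor of the retinol carrier, Stra6, at 7.53 ± 0.14, and Lrat, which stores retinol as ester, at 6.70 ± 0.40, were not above background. Neither were the breakdown enzymes Cyp26a1 at 5.42 ± 0.70 and Cyp26b1 at 7.67 ± 0.61. The count of 4 became 11 with the chemosensory receptor genes alone as background or with the level of 5, and 2 with the 99th percentile or the tissue-restricted genes alone.

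Of the 2 thyroid hormone receptor genes, Thra was above background and Thrb was not. Thra read 10.01, 9.96, 10.003, 10.20 and 10.07 in replicates 1 to 5 (adjusted p = 1.19e-08, limma), with 2 of its 3 probe sets above background. The single probe set of Thrb read 4.70, 4.92, 4.81, 4.45 and 4.65. Of 8 measured genes of thyroid hormone transport, deiodination and response, 1 was above background (12.5%, beside 58.0% of all genes). It was Me1, which encodes malic enzyme, at 10.39 ± 0.31 (SD, n = 5 arrays), and the median of the list lay at -0.74 from the level. The transporters Slc16a10 at 7.75 ± 0.22 and Slco1c1 at 4.26 ± 0.22 were not above background. Nor were the deiodinases Dio1 at 7.41 ± 0.48 and Dio2 at 6.09 ± 0.47. The count was 4 without probe sets with shared targets, 2 when all 5 arrays had to exceed the level, 7 with the chemosensory receptor genes alone or the level of 5, and 0 with the 99th percentile.

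Vdr, the vitamin D receptor, was above background on both of its probe sets. The brighter probe set read 11.24, 11.11, 10.84, 11.04 and 11.08 in replicates 1 to 5 (adjusted p = 2.56e-09, limma), and the other had a mean of 8.56. Of 5 measured genes of vitamin D metabolism, 0 were above background in limma, beside 58.0% of all genes. Of the 5, 0 had an unadjusted p under 0.05 and 0 had all 5 arrays above the level. Their median lay at -2.50 from it, and 1 gene was above the level of the chemosensory receptor genes alone and 3 above the level of 5. Cyp24a1, which breaks down the hormone and is its best known target, was at 5.47 ± 0.36 (SD, n = 5 arrays), and Cyp27b1, which makes it, at 3.44 ± 0.13. Cyp2r1 was at 5.33 ± 0.64 and Lrp2, which takes up the bound vitamin, at 5.50 ± 0.59.

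Of the peroxisome proliferator-activated receptors, which sense fatty acids, Pparg was above background and Ppara and Ppard were not. Pparg read 8.41, 8.39, 8.44, 8.37 and 8.15 in replicates 1 to 5, with a mean 0.38 above the level (adjusted p = 0.000902, limma). It was lowest in replicate 5, apart from the other arrays. Markers of alveolar type 2 cells were highest there (0.69 above their own means), and those of white blood cells too (0.32). Markers of club and of ciliated cells were lowest there (-0.16 and -0.05). A link between Pparg and these markers was not tested. Ppard read 7.45, 7.53, 7.61, 7.98 and 7.53, below the level on every array but replicate 4. The 3 probe sets of Ppara had means between 6.69 and 6.87. Over probe sets with no shared target, for which the level was 6.96, Ppard was above background (0.66, adjusted p = 0.000148, limma). Of 9 measured PPAR targets, with a median at 2.73 from the level, 6 were above background (66.7%, beside 58.0% of all genes). Among them were Plin2, which coats lipid droplets, at 11.94 ± 0.08 (SD, n = 5 arrays), and Pdk4, which spares glucose, at 12.13 ± 0.38. Cpt1a, which admits fatty acids to mitochondria, was another, at 10.04 ± 0.20. Angptl4 at 7.05 ± 0.32 was not above background, and nor were Ehhadh at 7.42 ± 0.25 and Fabp4 at 8.20 ± 0.40.

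The measured sterol and xenobiotic receptors of class NR1 were not above background. Nr1h2, the other oxysterol receptor gene besides Nr1h3, was not analysed here. Nr1h3, an oxysterol receptor (LXR), read 7.49, 7.78, 7.82, 7.76 and 7.38 in replicates 1 to 5, below 7.97 on every array. With the probe sets of every gene averaged, which set the level at 7.41, its single probe set was above background (0.23, adjusted p = 0.0189, limma). Nr1h4, the bile acid receptor, had a mean of 5.70, and Nr1i2 and Nr1i3, which sense foreign compounds in liver, 6.08 and 5.31. Of 10 LXR targets, 8 were above background, and their median lay at 2.08 from the level. Abca1 and Abcg1, which export cholesterol, were at 10.79 ± 0.10 and 10.78 ± 0.24 (SD, n = 5 arrays), Srebf1, a regulator of fatty acid synthesis, at 11.79 ± 0.17 and Mylip, which limits cholesterol uptake, at 8.49 ± 0.12. The liver and gut transporters Abcg5 and Abcg8, at 5.40 ± 0.29 and 5.35 ± 0.14, were not. The count of 8 became 5 with the tissue-restricted genes alone (45.5% of all genes) and 4 with the 99th percentile (27.0%).

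Rora and Rorb are constitutive activators, and Rora takes part in the circadian clock. Rora missed the threshold: its brightest probe set of 9 read 8.26, 8.65, 8.07, 7.80 and 8.28 in replicates 1 to 5 (adjusted p = 0.0985, limma). Only replicate 4 lay below the level, and without it Rora was above background (0.37, adjusted p = 0.0181, limma). The same held when probe sets with shared targets were left out, which lowers the level (1.25, adjusted p = 1.35e-05, limma). Another probe set of Rora had a mean of 8.20 (adjusted p = 0.0756, limma), and the remaining 7 lay between 4.60 and 7.97. The 3 probe sets of Rorb had means of 4.10 at most. The heme-binding clock repressors Nr1d1 and Nr1d2, which are not among the 41 genes, were at 10.35 ± 0.37 and 10.82 ± 0.18 (SD, n = 5 arrays), both above background.

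Of the orphan receptors of class NR2, Nr2c1, Nr2c2, Nr2f2 and Nr2f6 were above background, and Nr2f1, Nr2e1, Hnf4a and Hnf4g were not. Nr2f6 read 13.28, 13.22, 13.19, 13.31 and 13.27 in replicates 1 to 5, with an SD of 0.05, the lowest of the 18 genes (adjusted p = 1.36e-10, limma). Its second probe set, at 10.24, was above background as well. Nr2f2 (COUP-TFII), a factor of veins and of mesenchyme in many organs, read 12.18, 12.13, 12.02, 11.87 and 11.81 (adjusted p = 8.45e-10, limma). Its brightest probe set, and the one with a mean of 10.61, were highest in replicate 1. Markers of endothelium and of mesenchyme were lowest there (-0.54 and -0.26 from their own means). The probe set with a mean of 9.35 was highest in replicate 3, at 9.59, where both sets of markers were highest (0.43 and 0.33). Which of the sorted cells gave the Nr2f2 signal was not tested. Of its 6 probe sets 3 were above background, with means of 12.00, 10.61 and 9.35, and 3 were not, with means between 6.10 and 6.73. Nr2f1, its close relative, lay between 5.79 and 6.50 on the 5 arrays.

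Nr2c1 and Nr2c2, the testicular receptors, are orphan receptors that bind direct repeats. Nr2c1 read 10.46, 10.38, 10.23, 10.44 and 10.44 in replicates 1 to 5 (adjusted p = 4.77e-09, limma), and 3 of its 5 probe sets were above background. Nr2c2 read 11.50, 11.38, 11.71, 11.60 and 11.57 (adjusted p = 8.24e-10, limma), with 2 of 6 probe sets above background. Hnf4a, a regulator of liver and gut, read 7.24, 6.84, 6.26, 5.70 and 6.56. These arrays spanned 1.54, more than for any other of the 39 genes, and all lay below the level. The other 3 probe sets of Hnf4a had means between 3.18 and 5.24, and the 3 of Hnf4g, its relative in gut, means of 3.88 at most. Nr2e1, a factor of neural stem cells, had means of 4.69 and 3.52.

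Start regions of the receptor genes differed widely in CpG content, and those of Nr2f6 and Hnf4a, of which the first was above background and the second was not, show the contrast. RefSeq's window for Nr2f6 on GRCm38.p6 lies at chr8:71381903-71382202 on the minus strand and holds 53 CG pairs, in capitals. That for Hnf4a lies at chr2:163506607-163506906 on the plus strand and holds 4.
Nr2f6: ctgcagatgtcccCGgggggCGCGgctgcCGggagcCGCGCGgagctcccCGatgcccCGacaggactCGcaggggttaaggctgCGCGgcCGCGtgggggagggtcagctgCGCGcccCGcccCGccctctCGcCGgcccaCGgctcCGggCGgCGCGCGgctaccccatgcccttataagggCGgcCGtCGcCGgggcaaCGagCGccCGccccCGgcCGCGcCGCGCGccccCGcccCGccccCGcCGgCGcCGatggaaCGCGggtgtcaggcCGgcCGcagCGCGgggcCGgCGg
Hnf4a: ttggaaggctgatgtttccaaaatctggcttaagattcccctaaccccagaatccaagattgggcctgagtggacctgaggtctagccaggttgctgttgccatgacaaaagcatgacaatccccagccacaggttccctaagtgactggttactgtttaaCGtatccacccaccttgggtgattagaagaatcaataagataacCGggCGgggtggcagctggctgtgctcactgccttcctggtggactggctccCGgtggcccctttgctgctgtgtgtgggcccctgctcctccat
A window was found for 35 of the 39 genes, and the one richest in CG was taken for each gene. The median was 20.5 CG pairs over 16 receptor genes above background and 14 over 19 that were not, and both sets ranged from 2 upwards, to 55 and 37. Nr2f2, above background, had 2 pairs, and Thrb, which was not, had 37, so the sets overlapped. Over all 8601 genes above background with a window the median was 23. The same comparison for genes not above background is void, since 76.5% of them had a window, short of the 80% set for it.

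Of the steroid receptors, Nr3c1 was above background, and Nr3c2, Pgr, Esr1 and Esr2 were not. Nr3c1, the glucocorticoid receptor, read 11.50, 11.77, 11.52, 11.33 and 11.44 in replicates 1 to 5 (adjusted p = 1.62e-09, limma). It was measured by 6 probe sets, and 3 of them were above background, with means of 11.51, 10.84 and 10.65. The other 3 lay between 5.37 and 7.21. Nr3c2, the mineralocorticoid receptor, which acts on sodium transport in epithelia, read 8.40, 8.23, 7.39, 8.02 and 7.65, on both sides of the level. Its mean of 7.94 lay 0.03 below it (-0.03), so its call turned with the level: Nr3c2 was above background with all probe sets averaged (0.52, adjusted p = 0.00582, limma) and over probe sets with no shared target (0.98, adjusted p = 0.000301, limma). Pgr, the progesterone receptor, read 8.39, 8.15, 7.61, 7.60 and 7.91 on 1 probe set, whereas its other probe sets had means of 3.56 and 3.37. Its mean lay at -0.04 from the level, and over probe sets with no shared target Pgr was above background (0.97, adjusted p = 0.000113, limma). Esr1 had means of 4.95 at most on 3 probe sets, and the single probe set of Esr2 a mean of 5.95.

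Genes of glucocorticoid action were above background almost throughout. All 7 measured chaperones of steroid receptors were, with a median at 5.16 from the level, and with Hsp90aa1 at 14.01 ± 0.10, Hspa8 at 14.20 ± 0.08, Stip1 at 12.76 ± 0.01 and Fkbp4 at 12.10 ± 0.08 (SD, n = 5 arrays). These proteins fold many other clients too. Of 13 genes of glucocorticoid activation and response, 12 were above background (92.3%, beside 58.0% of all genes). The median of the 13 lay at 3.84 from the level. Hsd11b1, which makes the active hormone, was at 10.54 ± 0.37, whereas Hsd11b2, which inactivates it, was at 7.17 ± 0.25 and not above background. Among the targets, Tsc22d3, a mediator of the anti-inflammatory response, was at 10.78 ± 0.26 and Per1, a clock gene, at 11.17 ± 0.19. Fkbp5, a target of the receptor that is counted here with the chaperones, was at 10.44 ± 0.11. Several genes on this list, Dusp1, Per1 and Nfkbia among them, also respond to other stimuli.

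All 3 estrogen-related receptor genes, orphan receptors that act on mitochondrial and metabolic genes, were above background, each on 1 probe set. Esrra read 8.47, 8.40, 8.40, 8.40 and 8.34 in replicates 1 to 5, with a mean 0.43 above the level (adjusted p = 0.000159, limma). Esrrb read 9.19, 8.69, 8.93, 9.35 and 8.97 (adjusted p = 2.03e-05, limma). Esrrg read 11.04, 10.65, 10.25, 10.36 and 10.47 (adjusted p = 1.44e-07, limma), with an SD of 0.31, the highest of the 18 genes. Their probe sets disagreed: the other one of Esrra was at 7.11, those of Esrrb at 5.84 and 4.94, and those of Esrrg at 6.28 and 4.35. With the probe sets of each gene averaged, Esrrb and Esrrg lay below that setting's level (-0.81 and -0.35). Ppargc1a, a coactivator of these receptors, was at 10.09 ± 0.30 (SD, n = 5 arrays) and above background, and its relative Ppargc1b was at 6.82 ± 0.39 and was not.

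In the remaining classes, Nr5a2 and Nr6a1 were above background by small margins, and Nr5a1, Nr0b1 and Nr0b2 were not. Nr5a2 read 8.15, 8.14, 8.85, 8.30 and 8.48 in replicates 1 to 5 (adjusted p = 0.00969, limma). Nr6a1, the germ cell nuclear factor, read 8.41, 8.13, 8.24, 8.55 and 8.61 (adjusted p = 0.00246, limma). In each, 1 probe set of several was above background, and with the probe sets averaged both lay below that setting's level (-0.23 and -1.66). Nr5a1, which acts in the adrenal gland and gonads, had a mean of 5.80. Nr0b1 and Nr0b2, which lack the DNA-binding domain and hold other receptors in check, had means of 3.98 and 5.24.

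Probe sets of 1 gene often disagreed. Of the 18 genes above background, 14 had several probe sets, and for 2 of them, Vdr and Nr2f6, every probe set was above background. For 7 of the 14 a single probe set was above background: Rarg, Rxra, Esrra, Esrrb, Esrrg, Nr5a2 and Nr6a1. Over the whole family, 28 of 102 probe sets (27.5%) were above background, beside 47.5% of all 34945 single-gene probe sets. Of the 25 genes with several probe sets 14 were above background, and of the 14 genes with 1 probe set 4 were, namely Rara, Rarb, Pparg and Rxrb. Since the brightest probe set stands for its gene, a gene with more probe sets has more chances to be above background. The matching shares and disagreements over all genes, by number of probe sets, were not counted, so these counts show no trait of the receptors.

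**Figure D3:**
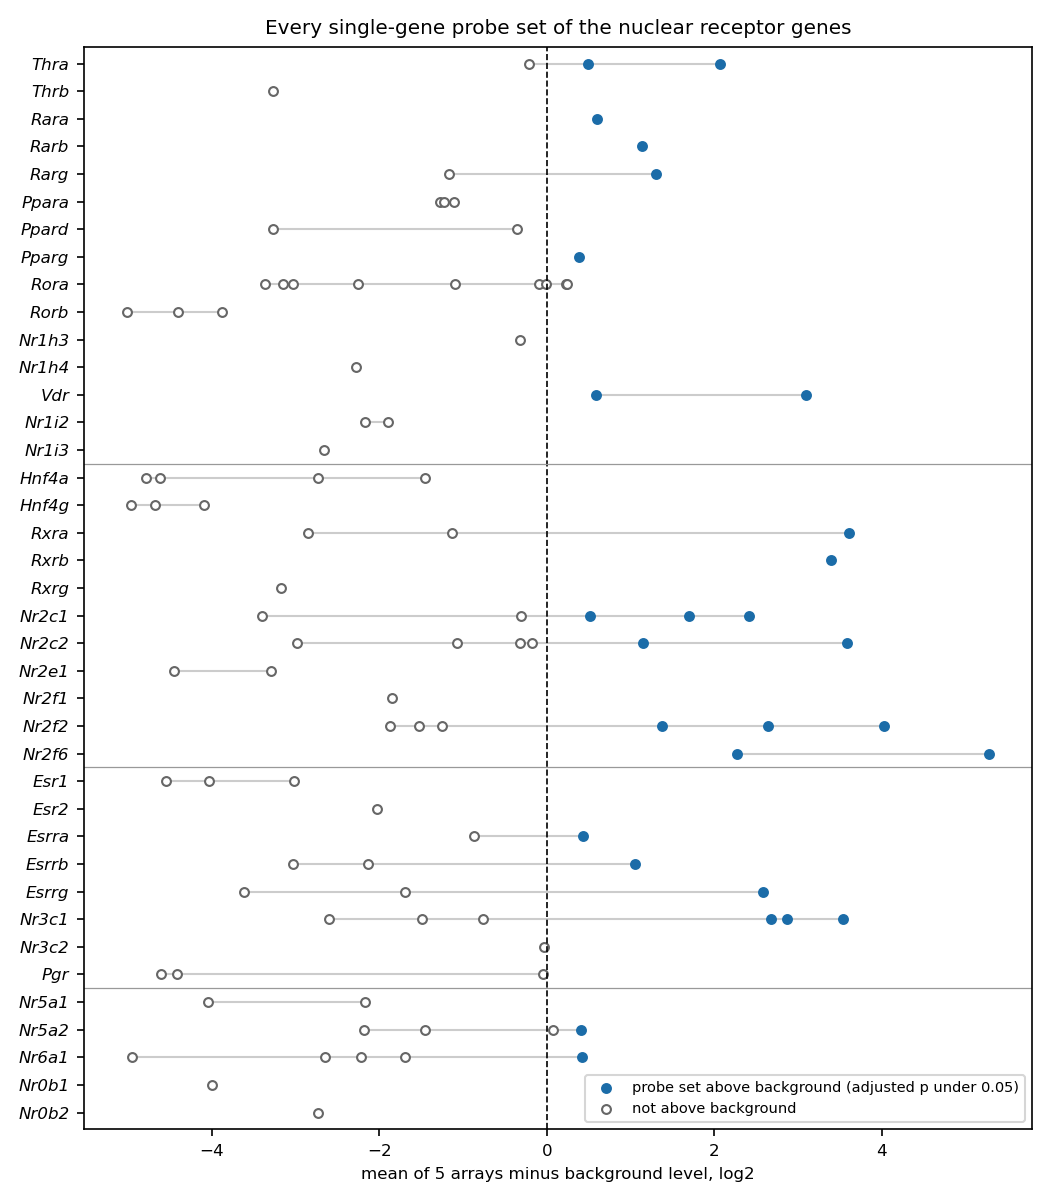
Means of all 102 single-gene probe sets of the nuclear receptor genes, minus the background level, in log2 units. Each circle is 1 probe set, filled where it was above background, and grey lines join the probe sets of a gene. Filled circles lie right of the dashed line, and most genes with a filled circle also have open ones.

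Between the 5 arrays the 18 receptor genes above background had a median SD of 0.15, the same to 2 decimals as that of all 10549 genes above background. The single SDs ran from 0.05 for Nr2f6 to 0.31 for Esrrg. Averaged over the 18 genes, the deviation from each gene's own mean was 0.04 in replicate 1, 0.00 in replicates 2 and 4, -0.01 in replicate 3 and -0.04 in replicate 5, a range of 0.08. The range was 0.04 without replicate 1 and 0.05 without replicate 5. Replicate 1 held the highest value of 6 of the 18 genes and replicate 2 the lowest value of 6. Over all genes above background the range was 0.04. In the same arrays it was 0.08 for the markers of ciliated cells, 0.40 for alveolar type 1 cells, 0.42 for club cells and 0.60 for mesenchyme. It was 1.36 for alveolar type 2 cells, 0.97 for endothelium and 0.84 for white blood cells. Replicate 1 was lowest in each of these 3, and also for alveolar type 1 cells and mesenchyme. Opposite movements of single genes cancel in these means: Rarb and Esrrg were highest in replicate 1 (0.35 and 0.49 above their means), and Rarg was lowest there (-0.38).

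**Figure D4:**
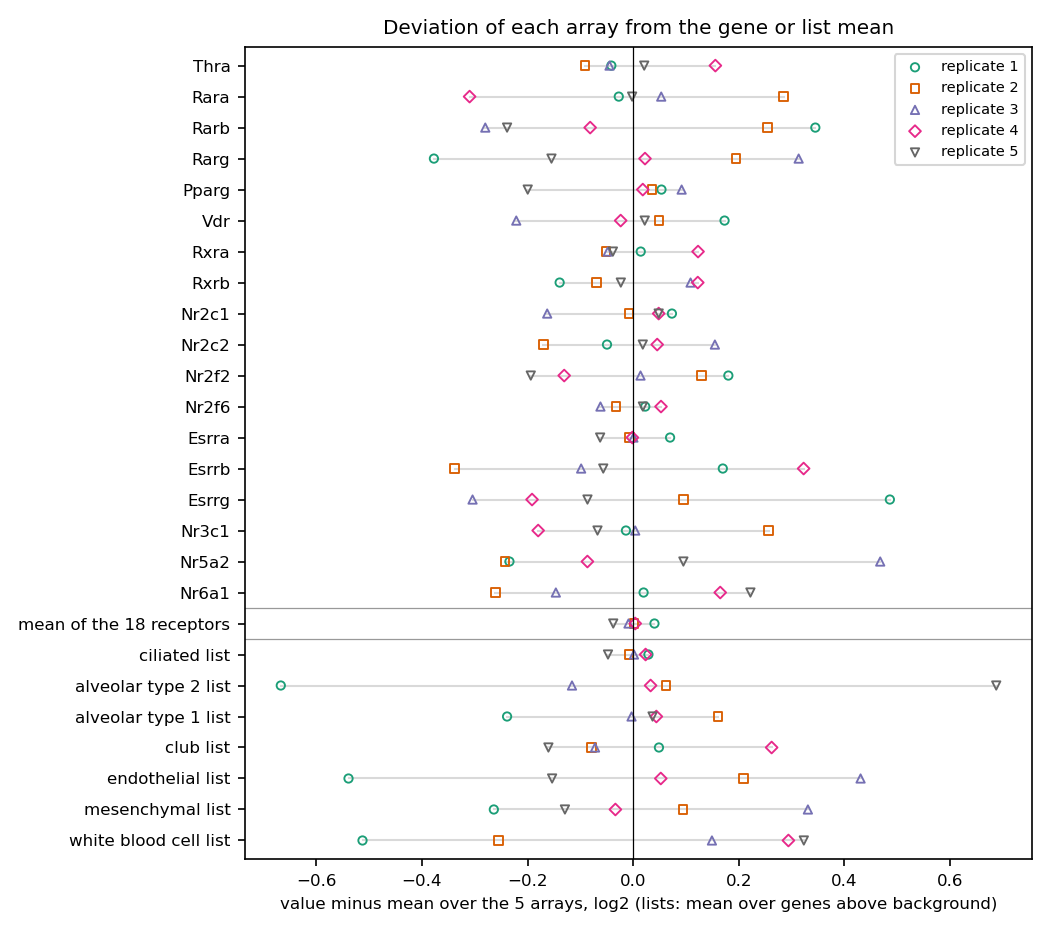
Deviation of each array from the mean over the 5 arrays, in log2 units, for the 18 receptor genes above background, for their average and for lists of cell type markers. Each symbol is 1 replicate and each line joins the 5 arrays of a gene or list; the average of the receptors spans 0.08 and the alveolar type 2 list 1.36.

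The proteins through which receptors act on chromatin were above background with few exceptions. Of 14 coactivators, which open chromatin or contact the transcription machinery, 13 were above background, with a median at 3.26 from the level. The p160 coactivators Ncoa1, Ncoa2 and Ncoa3 were at 11.66 ± 0.11, 11.24 ± 0.07 and 12.11 ± 0.19 (SD, n = 5 arrays), and Ncoa6 was at 10.25 ± 0.10. Of 8 measured corepressors, which keep genes silent without ligand, 7 were above background, with a median at 2.77, and 3 were with the 99th percentile. Hdac3, a histone deacetylase, was at 9.99 ± 0.05, its partners Tbl1x and Tbl1xr1 at 11.67 ± 0.10 and 11.95 ± 0.03 and Gps2 at 10.40 ± 0.18. Hr at 7.04 ± 0.16 was not above background. Of 90 genes on the 10 lists of other receptors, cofactors, ligand handling, chaperones and targets, each counted once, 63 were above background, beside 58.0% of all genes. The 5 measured nuclear receptors outside the 41, which besides Nr1d1 and Nr1d2 are Nr4a1 at 12.41 ± 0.13, Nr4a2 at 10.34 ± 0.38 and Nr4a3 at 10.24 ± 0.70, were all above it, and 1 of the 5 was with the 99th percentile. These lists describe the same sorted cells and were compared with no other cell population.

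**Figure D5:**
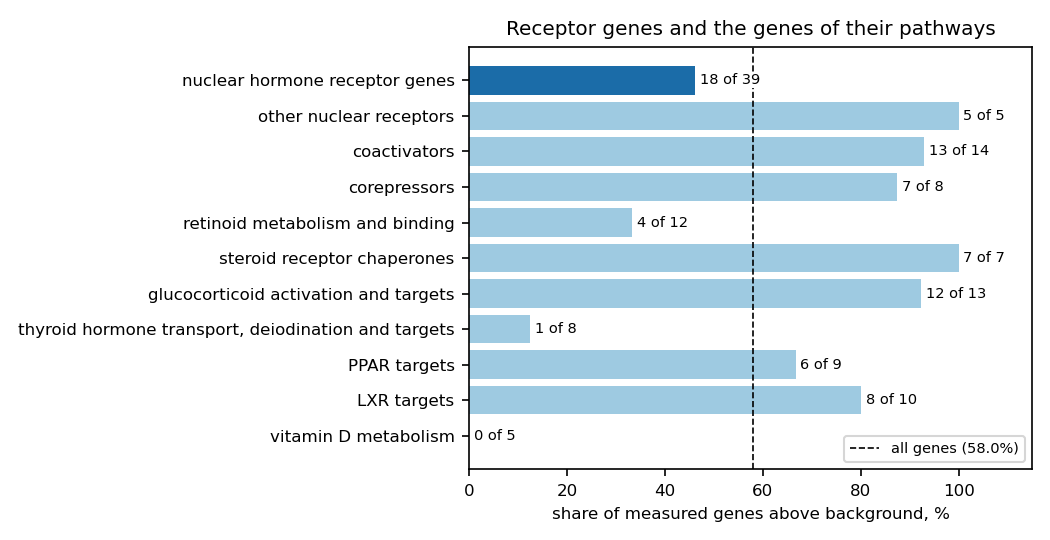
Share of measured genes above background, in percent, for the nuclear receptor genes (dark bar) and 10 lists of genes of their pathways; the numbers beside the bars give how many of how many. The dashed line is the share of all genes, 58.0%; the receptor genes lie at 46.2%, the coactivators at 92.9% and vitamin D metabolism at 0%.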

How the data were processed

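RNA of GFP+ cells from 5 replicates was amplified, labelled with biotin and hybridised to Affymetrix mouse arrays, and the data were analysed with Bioconductor in R. The authors deposited normalized values on a log2 scale for every probe set of every array. Neither the normalization method nor the scale is stated in the sources used here. The scale was inferred from values between 2.37 and 15.11 outside the controls, and the medians of the arrays were near-equal (7.18 to 7.26). Pearson's r between arrays, across probe sets, was 0.987 to 0.994. Raw intensities were not used here, and the number of arrays limits the precision.

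Of 45101 probe sets, 64 were controls, 34945 carried 1 gene by the platform's annotation, 932 several and 9160 none here. Symbols were checked by Entrez identifier against the GRCm38.p6 gene table, where 99.4% were found and 0 changed. With limma 3.58.1 (R 4.3.3), the mean of each probe set was estimated by lmFit and eBayes and tested one-sided against the background level, with Benjamini-Hochberg adjustment over 45037 probe sets. In simulated data of that size, 4% of 200 probe sets set at the level were called, and 68.5%, 93% and 99.5% of those 0.25, 0.5 and 1 above it. Other steps used Python 3.11.15, numpy 2.4.6, pandas 2.3.3 and matplotlib 3.10.9. Promoter windows are RefSeq's.

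The receptor genes, the other gene lists and the tests were chosen with earlier results of these data known. Named are all measured receptor genes, the first 4 measured genes of each other list and up to 5 whose call goes against most of it; further genes were named after their values were seen. Alternatives were averaged probe sets, no probe sets with shared targets (_x_at, _s_at, _a_at), quantile normalization, median centring, adjustment over probe sets reaching 5 on an array, 4 other background levels, all 5 arrays above the level with no test, and each replicate left out.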

Additional observations from a re-analysis of the deposited data

Results flagged for a closer look

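In 2 of the 39 receptor genes, 1 array lay apart from the other 4, by the gap to its nearest neighbour as a share of the gene's range (above Dixon's 95% critical value for 5 samples). Pparg was lowest in replicate 5, at 8.15 beside 8.37 to 8.44 on the others (0.748 of the range). Nr1i2, not above background, was highest in replicate 4, at 6.53 beside 5.88 to 6.04 (0.755). Of 90 genes of the pathway lists 3 did so too: Pprc1, a coactivator, was lowest in replicate 1 (0.72), Dhrs3, which reduces retinal, lowest in replicate 3 (0.773), and Mt2, a metallothionein, lowest in replicate 5 (0.712). Chance marks about 1 in 20 groups in this way. No cause was tested.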

How the results depend on the processing

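The 18 receptor genes above background stayed 18 under quantile normalization, median centring, the filter on dim probe sets and the call from all 5 arrays, and the count was 18 to 19 without 1 replicate, 16 with averaged probe sets and 19 without shared probe sets. Averaging added Nr1h3 and Nr3c2, and leaving out replicate 4 added Rora. Leaving out shared probe sets added Ppard, Rora, Nr3c2 and Pgr, but 6 of the 39 genes then had no probe set left. Among those 6 were Rara, Rarg and Pparg, which were above background as reported. The count moved with the background level, to 7 with the 99th percentile, 30 with the chemosensory receptor genes alone, 10 with the tissue-restricted genes alone and 32 with a level of 5. The 63 pathway genes became 38 with the 99th percentile (27.0% of all genes) and were 63 to 64 without 1 replicate (57.6% to 58.2%). The other alternatives gave 56, with the tissue-restricted genes alone (45.5%), to 86, with a level of 5 (81.3%). With the 99th percentile these genes fell below the level: Thra (-0.52), Rara (-1.99), Rarb (-1.46), Rarg (-1.29), Pparg (-2.21), Nr2c1 (-0.18), Esrra (-2.16), Esrrb (-1.54), Esrrg (-0.0125), Nr5a2 (-2.18) and Nr6a1 (-2.18). With the tissue-restricted genes alone they were Rara (-0.64), Rarb (-0.10), Pparg (-0.86), Esrra (-0.81), Esrrb (-0.18), Nr5a2 (-0.82) and Nr6a1 (-0.82). With averaged probe sets they were Esrrb (-0.81), Esrrg (-0.35), Nr5a2 (-0.23) and Nr6a1 (-1.66). The range over the arrays of the receptors' mean deviation, 0.0781, was 0.0389 under quantile normalization and 0.0417 to 0.0781 without 1 replicate. The median SD of 0.15 was 0.12 with averaged probe sets and 0.14 to 0.15 without 1 replicate. Of all genes, 4920 were above background with the 99th percentile and 10549 as reported. A higher or lower level itself moves these calls. Quantile normalization and averaging change the values, and further causes were not tested. No paired analysis was possible because the arrays form 1 group. What the arrays can show is limited by a background level that rests on the genes chosen for it.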
